A study of Mus musculus with 135 samples.

Results

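Cholesterol synthesis and turnover genes were followed as a set of 31 genes, chosen by symbol, of the 55416 genes counted in both tissues. All 31 were found in each table and all passed the filter on low counts in each comparison. By role, 8 genes act in the mevalonate steps, 11 in the sterol steps, 5 in the sensing of sterol, and 7 in the transport, storage and removal of cholesterol. Bulk RNA was sequenced from cerebral cortex and from hippocampus of adult male Townes mice, in which human globin genes replace the mouse globin genes. SS mice carry the human sickle allele in homozygous form and AA mice carry the human normal allele, so the control mice are humanized as well. Repeated social defeat (RSD) placed an aggressive male intruder in the home cage on consecutive days, and minocycline, an antibiotic that dampens microglial activation, was given in the drinking water. A genotype written alone (AA or SS) stands for mice with neither RSD nor minocycline, the control mice.

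Libraries with a known group numbered 134, and 128 were used. A pair of mice labelled SS + minocycline and AA + RSD + minocycline had identical counts in each tissue (a sum of 32837942 for the cortex table and 27202406 for the hippocampus table), and neither was used. The libraries of mouse 9674 (AA + RSD) were left out as well, because their tissue markers go against the labels: the library labelled cortex held 168 CPM (reads of a gene scaled to a common total of reads on genes) of 6 cortex marker genes against 307 CPM of 6 hippocampus marker genes, and the library labelled hippocampus held 672 and 54.6 CPM. In the used cortex libraries the 6 cortex markers summed to 253 to 763 CPM, against 137 to 461 CPM in the hippocampus, and the 6 hippocampus markers to 28.4 to 143 CPM against 224 to 656 CPM. Within the cortex, 5 libraries (5646, 5801, 9621, 9813 and 9890) lay under 400 CPM of cortex markers. The red-cell genes of mice 5844, 5853, 7078 and 9631 go against their labelled genotype, and these mice were kept. The SS mice in the cortex were 8 without treatment, 6 with RSD, 4 with minocycline and 14 with both, the AA mice were 12, 2, 1 and 18 in the same order, and the hippocampus had the same numbers except 11 AA and 7 SS. The AA + minocycline mouse entered no comparison. The depth was 16295042 to 107713193 reads on genes in the cortex and 12869149 to 68731008 in the hippocampus. In bulk tissue, fewer cells of a type and less RNA per cell cannot be told apart.

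The numbers of the mice fall into 3 series: A (5349 to 5400 and 9615 to 9674), B (5645 to 5900 and 9810 to 9910) and C (7037 to 7121 and 10633 to 10639). All RSD mice without minocycline are of series A, and all RSD mice with minocycline are of series B or C. Control mice came from series A (6 in the cortex, 5 in the hippocampus) and B (14 and 13). What the series stand for is not given in the labels. Reads outside annotated genes made up a median of 4.94% of reads in cortex control mice of series A and 9.69% in series B, and 5.05% and 8.29% in the hippocampus.

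Cholesterol does not cross the blood-brain barrier in useful amounts, so the brain makes its own. Acetyl-CoA is built up through mevalonate to farnesyl diphosphate, which is joined to squalene and closed to lanosterol, and a chain of demethylations, reductions and shifts of a double bond gives cholesterol. When membranes are low in sterol, Scap carries the transcription factors Srebf1 and Srebf2 from the endoplasmic reticulum to the Golgi, where they are cut and released to switch on the synthesis genes, and Insig1 and Insig2 hold Scap back when sterol is plentiful. Oligodendrocytes use cholesterol for myelin, astrocytes pass it to neurons on Apoe particles, and neurons remove the surplus through Cyp46a1, which hydroxylates it into a form that leaves the brain.

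The promoters of synthesis genes are known for sterol regulatory elements, the sites of Srebf1 and Srebf2, often close to CCAAT boxes bound by the factor NF-Y. In the 250 bases before the start of the canonical transcript (GRCm39), the motif CCAAT, on either strand, was found in 20 of the 31 genes (64.5%), against 7935 of 21757 protein-coding genes (36.5%). The motif TCACNCCAC, a form of the sterol regulatory element, was found on either strand in 1 of 31, Hmgcs1, against 243 of 21757 genes (1.12%). Among the windows with CCAAT, those of Fdft1, Idi1 and Tm7sf2 lie wholly in exons of the same gene. Mvd, Cyp51, Pmvk, Acat2, Abca1 and Apoe, also described below, held neither motif. Sequence upstream of the gene, without the exonic bases of the window, is shown for 5 genes that hold a motif and whose levels are described below. These motifs (or the reverse complement ATTGG) are in capitals. The stretches are chr13:120151732-120151914 (plus strand) for Hmgcs1, chr15:59186632-59186868 (plus strand) for Sqle, chrX:8059796-8060001 (minus strand) for Ebp, chr1:169796814-169797063 (minus strand) for Hsd17b7 and chr5:28276077-28276314 (plus strand) for Insig1.
Hmgcs1: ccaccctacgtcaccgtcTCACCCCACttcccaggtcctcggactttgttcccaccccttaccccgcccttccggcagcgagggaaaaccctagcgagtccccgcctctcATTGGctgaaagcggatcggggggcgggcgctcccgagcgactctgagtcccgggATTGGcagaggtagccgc
Sqle: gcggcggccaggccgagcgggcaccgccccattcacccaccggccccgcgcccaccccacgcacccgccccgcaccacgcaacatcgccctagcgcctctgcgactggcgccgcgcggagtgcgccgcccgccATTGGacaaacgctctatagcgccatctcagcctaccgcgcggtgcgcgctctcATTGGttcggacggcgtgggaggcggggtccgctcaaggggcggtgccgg
Ebp: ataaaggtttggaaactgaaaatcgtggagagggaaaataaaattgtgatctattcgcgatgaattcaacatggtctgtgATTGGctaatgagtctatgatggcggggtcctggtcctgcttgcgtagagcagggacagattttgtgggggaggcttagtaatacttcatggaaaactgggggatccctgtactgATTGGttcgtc
Hsd17b7: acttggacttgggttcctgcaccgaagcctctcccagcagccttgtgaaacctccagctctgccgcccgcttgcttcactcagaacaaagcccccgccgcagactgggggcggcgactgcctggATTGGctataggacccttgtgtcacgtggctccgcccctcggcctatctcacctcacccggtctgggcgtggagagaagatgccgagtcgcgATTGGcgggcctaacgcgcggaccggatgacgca
Insig1: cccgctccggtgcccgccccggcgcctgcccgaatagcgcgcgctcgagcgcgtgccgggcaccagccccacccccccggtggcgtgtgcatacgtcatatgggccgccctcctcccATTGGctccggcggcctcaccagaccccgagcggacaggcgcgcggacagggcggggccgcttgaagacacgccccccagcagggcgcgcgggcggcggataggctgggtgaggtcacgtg
A match is a description of the letters in these windows, and the binding of a factor was not measured.

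Levels were compared between genes as CPM per kilobase of exon in the 20 cortex and 18 hippocampus control mice. The length joins the exons of all annotated transcripts of a gene, so it can exceed that of the RNA present. Apoe, the lipoprotein that carries cholesterol between brain cells, stood far above the other genes in the cortex, at 277 ± 71.8 CPM per kilobase (SD, n = 20), and its lowest mouse (159) was above the highest mouse of the next gene (70.1). That next gene was Hmgcs1, the synthase that condenses acetyl groups to HMG-CoA, at 51.1 ± 7.83 per kilobase. Cyp46a1 followed at 50.5 ± 4.74, which does not differ from Hmgcs1 beyond the spread between mice, then Srebf2 at 30.8 ± 1.70 and Fdft1, the squalene synthase, at 25.1 ± 4.55.

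Between Insig1 (13.9 ± 1.73 per kilobase) and Abca1 (2.75 ± 0.552), the cortex levels of 24 genes formed a dense order in which most neighbours differed by less than the SD of either, such as Ggps1 (9.67 ± 0.706) and Pmvk (9.67 ± 1.37). Mvk, the mevalonate kinase, at 1.77 ± 0.180, and Fdps, the farnesyl diphosphate synthase, at 0.378 ± 0.0971, closed the order, and the ranges of this pair did not overlap. The hippocampus gave the same first 5 genes (Apoe 366 ± 106, Hmgcs1 39.9 ± 5.50, Cyp46a1 35.8 ± 3.68, Srebf2 25.6 ± 2.03 and Fdft1 18.4 ± 3.31 per kilobase, n = 18) and the same pair at the end. Fdps has 2 copies elsewhere in the genome that share at least 95% of the bases over at least 300 bases, the longest over 1066 bases (Gm5873). Such copies were also found for Acat2 (longest 1477 bases), Fdft1 (1249), Ggps1 (903), Idi1 (684) and Hmgcs1 (396). Reads with more than 1 best place went to no gene, so the level of Fdps is uncertain. The levels of the other genes with copies are uncertain as well, to an extent that was not measured.

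The spread between control mice also differed from gene to gene. In the cortex the coefficient of variation was lowest for Insig2 (5.46%) and Srebf2 (5.53%) and highest for Apoe (25.9%), Fdps (25.7%), Tm7sf2 (22.4%) and Ebp (20.5%). These values pool the mouse-number series, whose means differ for Apoe, Tm7sf2 and Ebp (given below). Tm7sf2 is a reductase and Ebp an isomerase of the late sterol steps.

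**Figure D1:**
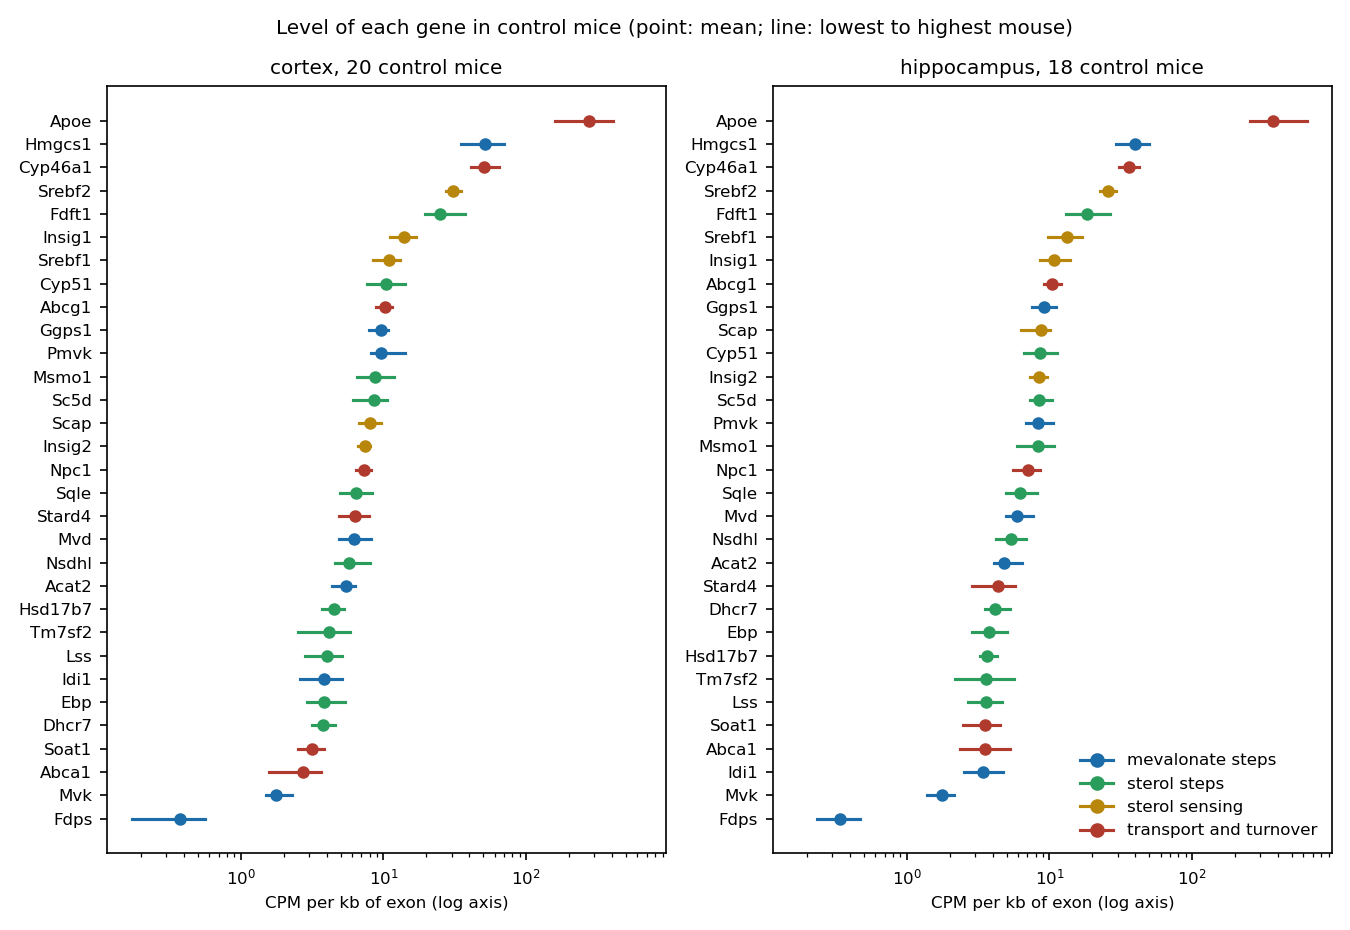
Level of each of the 31 genes in control mice of each tissue, as CPM per kilobase of exon on a log axis, with a point at the mean, a line from the lowest to the highest mouse, and colours for the 4 roles. Apoe stands alone at the top and Fdps at the bottom in both tissues.

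The tissues were compared within the 18 control mice that have a library of each, with the mouse as a block. Of the 31 genes, 21 differed (14 higher and 7 lower in the cortex), which is 67.7%, against 61.4% of all genes tested (28.6% higher, 32.8% lower). The mevalonate steps had 5 of 8 genes higher in the cortex and the remaining 3 not called, and the sterol steps had 5 of 11 higher and 1 lower. The sensing genes had 2 higher and 3 lower, and the transport and removal genes likewise 2 higher and 3 lower.

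Cyp46a1 was higher in the cortex in 18 of 18 mice, at 208 ± 20.2 CPM against 148 ± 15.2 (log2 fold change 0.51 ± 0.03 SE, adjusted p = 3.94e-13). Stard4, which ferries cholesterol between membranes, was 38.9 ± 5.60 CPM in the cortex and 26.6 ± 4.91 in the hippocampus (0.57 ± 0.05, adjusted p = 7.56e-10). Fdft1 (117 ± 17.6 against 87.7 ± 15.8 CPM, 0.44 ± 0.04), Insig1 (67.2 ± 8.53 against 52.6 ± 8.08, 0.38 ± 0.03) and Hmgcs1 (267 ± 42.04 against 210 ± 28.99, 0.36 ± 0.04) were higher in the cortex in 18 of 18 mice each. The same held for Hsd17b7, a reductase of the sterol steps (0.32 ± 0.03), and Srebf2 (0.28 ± 0.03).

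Apoe went the other way in 18 of 18 mice, with 1101 ± 280 CPM in the cortex and 1483 ± 431 in the hippocampus (-0.41 ± 0.05, adjusted p = 3.15e-07). The other genes lower in the cortex were Abca1 (-0.32 ± 0.07), a pump that loads cholesterol onto Apoe, Srebf1 (-0.25 ± 0.04), Insig2 (-0.17 ± 0.02), Dhcr7 (-0.13 ± 0.03), the reductase of the last step to cholesterol, Soat1 (-0.12 ± 0.04), which stores cholesterol as esters, and Scap (-0.09 ± 0.03). The transcription factor pair and the Insig pair were thus each split, with Srebf2 and Insig1 higher and Srebf1 and Insig2 lower in the cortex. Without the mouse block 16 of the genes differed, 11 higher and 5 lower, and the share of all genes in that fit is not given here. The exonic bases of Fdft1 overlap Ctsb on the other strand over 24.8% of their length and those of Cyp51 overlap Akap9 over 21.1%, and the strand setting of the counts is not given in the sources used here.

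**Figure D2:**
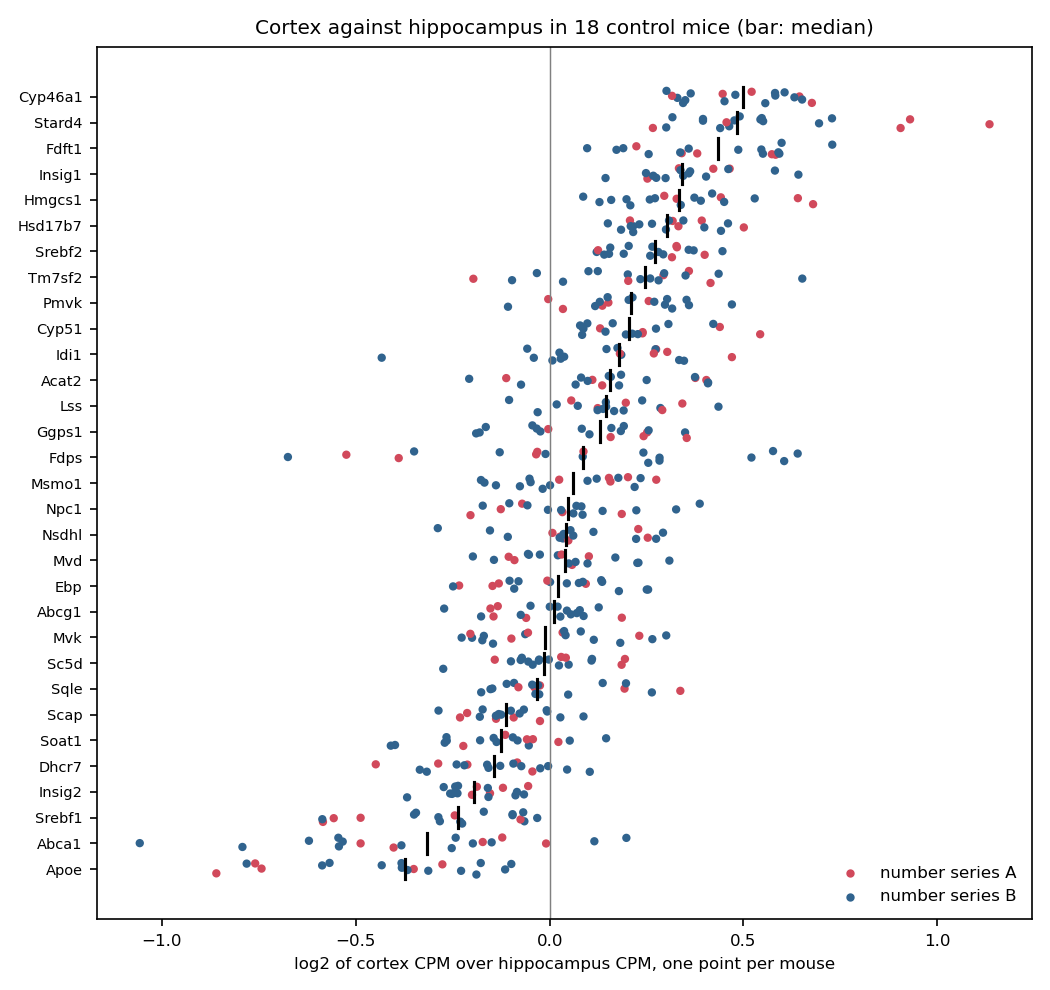
Ratio of cortex CPM to hippocampus CPM on a log2 axis for the 31 genes, 1 point for each of the 18 control mice, coloured by number series, with a bar at the median. Cyp46a1, Stard4 and Fdft1 lie to the right of 0 in all mice and Apoe lies to the left in all mice.

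The set also differed between control mice of the number series, in both tissues. In the cortex, with genotype as a term, 19 of 31 genes differed (61.3%, against 40.3% of all genes tested), 3 higher and 16 lower in series B (9.68% and 51.6% of the set, against 21.1% and 19.1% of all genes). In the hippocampus 14 of 31 differed (45.2%, against 40.8%), 3 higher and 11 lower (9.68% and 35.5%, against 18.3% and 22.5%). The median log2 difference of the 31 genes was -0.17 in the cortex and -0.20 in the hippocampus, against 0.02 and 0.01 for all genes. By role, the cortex had 5 of 8 mevalonate genes, 7 of 11 sterol genes, 3 of 5 sensing genes and 1 of 7 transport genes lower in series B, and the hippocampus 3, 5, 1 and 2.

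Fdft1 had the smallest p in the cortex. It was 132, 135, 147 and 179 CPM in AA mice of series A and 127 and 144 in SS mice of series A, and ranged from 93.7 to 140 CPM in the 14 mice of series B, so the series overlapped among AA mice and not among SS mice (143.8 ± 18.8 against 109.6 ± 13.4 CPM, -0.45 ± 0.07, adjusted p = 0.000272). In the hippocampus it was 103 ± 16.2 CPM in series A and 81.9 ± 11.6 in series B (-0.45 ± 0.10, adjusted p = 0.00188). How many of all genes show no overlap between the series was not counted.

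Pmvk, the phosphomevalonate kinase, was 42.3 ± 6.15 CPM in series A and 34.8 ± 2.75 in series B of the cortex (-0.36 ± 0.07, adjusted p = 0.000836), and 36.9 ± 3.41 against 29.6 ± 2.995 in the hippocampus (-0.43 ± 0.08, adjusted p = 0.000403). Ebp was 18.8 ± 2.09 against 14.2 ± 2.55 CPM in the cortex (-0.47 ± 0.11, adjusted p = 0.00179) and 19.5 ± 1.44 against 13.8 ± 2.40 in the hippocampus (-0.61 ± 0.11, adjusted p = 0.000577). Nsdhl, which removes methyl groups from the sterol ring together with Msmo1, was also lower in both tissues (-0.35 ± 0.08 and -0.28 ± 0.08). Sqle (-0.32 ± 0.08), the squalene epoxidase, Msmo1 (-0.42 ± 0.10) and Cyp51 (-0.39 ± 0.10), the lanosterol demethylase, were lower in the cortex. Apoe was lower as well (-0.45 ± 0.16 in the cortex and -0.63 ± 0.16 in the hippocampus).

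The genes higher in series B were fewer. Tm7sf2 was 12.4 to 21.1 CPM in the 6 cortex control mice of series A and 15.9 to 28.7 CPM in the 14 of series B (15.9 ± 3.24 against 22.5 ± 3.60, 0.39 ± 0.10, adjusted p = 0.0051), and 12.8 ± 1.63 against 19.6 ± 4.43 CPM in the hippocampus (0.49 ± 0.13, adjusted p = 0.00657). Lss, the lanosterol synthase, was higher in both tissues (0.27 ± 0.08 and 0.35 ± 0.09), Scap in the cortex (0.16 ± 0.05) and Soat1 in the hippocampus (0.26 ± 0.09). Exonic bases of Tm7sf2 overlap Vps51 on the same strand over 10.8% of their length. In AA mice alone 3 genes differed in the cortex and 4 in the hippocampus, and in SS mice alone 13 and 7. These fits rest on fewer mice, and the share of all genes called in them is not given here. The counts therefore do not compare the genotypes.

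The summed level of 8 oligodendrocyte markers had a median of 5818 CPM (5065 to 7267) in series A and 4814 CPM (3682 to 6689) in series B of the cortex control mice, and 7443 CPM (4383 to 8964) against 4711 CPM (3556 to 8652) in the hippocampus, with none of the markers at 0 in any control library. The 7 astrocyte markers summed to medians of 4139 and 4047 CPM in the cortex and 4476 and 4278 CPM in the hippocampus, and the 6 microglia markers to 256 and 202 CPM and to 295 and 226 CPM. The part of these markers, and of the share of reads outside genes given above, in the difference between series was not tested.

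**Figure D3:**
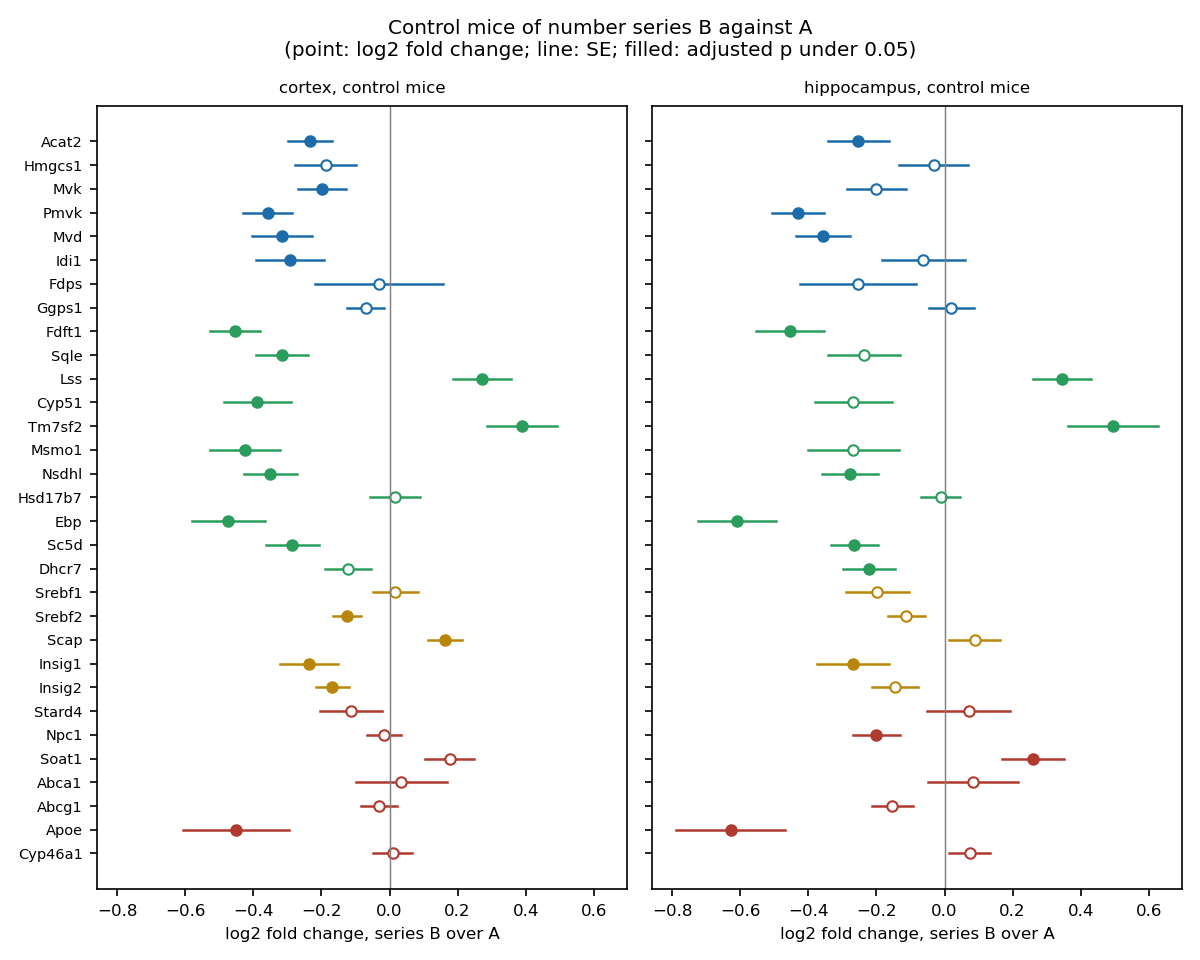
Log2 fold change of series B over series A in control mice for the 31 genes in each tissue, with the SE as a line, filled points for adjusted p under 0.05, and the colours of the roles (blue mevalonate, green sterol, ochre sensing, red transport and removal). Most points lie left of 0, and Tm7sf2 and Lss lie right of it in both tissues.

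SS + RSD mice were compared with SS mice to ask what stress did in sickle mice. All SS + RSD mice are of series A, as are 2 of the SS mice in each tissue, so beyond those 2 mice RSD and number series cannot be told apart. In the cortex 0 of the 31 genes were called by edgeR (2.57% of all genes were), and DESeq2 called 3 (Hmgcs1 higher, Fdps and Tm7sf2 lower). An unadjusted p under 0.05 was reached by 7 of the 31, against 5508 of 19906 over all genes. The share of all genes called by DESeq2 is not given, here or below. Fitted differences were above 0 for 25 genes and below 0 for 6, with a median of 0.12 against 0.08 over all genes. In the hippocampus 1 of 31 was called (3.23%, against 3.11% of all genes and 3.01% in the lower direction), 25 differences were again above 0 and 6 below, and the median was 0.14 against 0.06.

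The called gene was Tm7sf2 in the hippocampus. It ranged from 10 through a median of 11.8 to 14.5 CPM in the 6 SS + RSD mice and from 13.3 through 21.2 to 27.9 CPM in the 7 SS mice (12.04 ± 1.69 against 20.2 ± 5.19, -0.63 ± 0.17, adjusted p = 0.0446). The groups overlap only through the 2 SS mice of series A, at 13.3 and 13.8 CPM, and the SS mice of series B lie at 20.2 CPM or more. Among mice of series A alone the log2 difference was -0.13 ± 0.15 (adjusted p = 0.83), and with the series as a term -0.16 ± 0.23 (adjusted p = 0.941). In the cortex Tm7sf2 was 13.2 to 20.1 CPM (median 14.9) in SS + RSD mice and 16.2 to 28.7 CPM (median 23.6) in SS mice (-0.41 ± 0.15, adjusted p = 0.0864). Leaving out any 1 SS + RSD mouse other than 5400, or the libraries 5844, 5853, 7078 and 9631, gave 0 called genes in the hippocampus.

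The smallest p of the cortex belonged to Hmgcs1, at 226.5 to 360.5 CPM (median 267.5) in the 6 SS + RSD mice and 183.6 to 292.9 CPM (median 240.1) in the 8 SS mice (0.35 ± 0.11, adjusted p = 0.0599). The ranges overlap widely, and in series A alone the difference was 0.11 ± 0.17. Fdps was next, at 0.644 to 1.75 CPM (median 1.19) in SS + RSD mice and 1.58 to 2.75 CPM (median 1.82) in SS mice, with 1 SS + RSD mouse inside the range of the SS mice (-0.61 ± 0.20, adjusted p = 0.0718). In series A alone the Fdps difference was -0.58 ± 0.37 (adjusted p = 1.0). The level of Fdps is low and its copies are named above.

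Other measures also differed between these groups of SS mice. Reads outside genes had a median of 9.75% in SS mice, 4.17% in SS + RSD mice and 9.76% in SS + RSD + minocycline mice of the cortex, and 7.83%, 4.38% and 9.32% in the hippocampus. The 2 SS mice of series A, without RSD, had 5.24% and 4.63% in the cortex, inside the range of the SS + RSD mice (3.69% to 8.39%). The 6 microglia markers summed to 187 to 260 CPM (median 207) in SS mice, 239 to 323 (median 259) in SS + RSD mice and 180 to 332 (median 229) in SS + RSD + minocycline mice of the cortex, against a median of 256 CPM in control mice of series A. The 8 oligodendrocyte markers had medians of 4318, 5756 and 5411 CPM in the cortex and 4087, 6528 and 5776 CPM in the hippocampus, with none of the microglia or oligodendrocyte markers at 0 in these groups. The part of these measures in the comparisons of SS mice was not tested.

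Mice given minocycline during RSD (SS + RSD + minocycline) were then compared with the same SS + RSD mice, so both comparisons share those 6 libraries. In the cortex 4 of 31 genes were called (12.9%, against 8.85% of all genes), 2 higher and 2 lower (6.45% each, against 6.38% and 2.47% of all genes). Fdps was 1.35 to 2.50 CPM (median 2.05) in the 14 SS + RSD + minocycline mice against 0.644 to 1.75 CPM in SS + RSD mice (2.06 ± 0.293 against 1.196 ± 0.387, 0.66 ± 0.18, adjusted p = 0.0246). Tm7sf2 was 14.5 to 30.6 CPM (median 24.7) against 13.2 to 20.1 CPM (22.9 ± 5.24 against 15.7 ± 2.40, 0.42 ± 0.13, adjusted p = 0.0479). Both rose, with overlapping groups.

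Ebp fell, from 12.6 to 26.8 CPM (median 18.9) in SS + RSD mice to 11.6 to 21.6 CPM (median 13.3) with minocycline (19.3 ± 4.70 against 14.4 ± 2.82, -0.54 ± 0.16, adjusted p = 0.0375). Hmgcs1 fell from 282.5 ± 49.7 to 246.8 ± 18.4 CPM (range 223.7 to 297.1), by 0.31 ± 0.09 on the log2 scale (adjusted p = 0.0379). These 4 genes have, in series B over A of control mice, differences of -0.03 ± 0.19 (Fdps), 0.39 ± 0.10 (Tm7sf2), -0.47 ± 0.11 (Ebp) and -0.19 ± 0.09 (Hmgcs1), and SS + RSD against SS + RSD + minocycline cannot be told apart from series A against B and C. With the series as a term none of the 4 was called, and the difference was 0.68 ± 0.34 for Fdps (adjusted p = 1.0), 0.15 for Ebp, -0.05 for Tm7sf2 and -2.8e-05 ± 0.18 for Hmgcs1. Leaving out 1 SS + RSD mouse gave 0 called genes without 5354 or 5391, 1 without 9615 or 9621, and 2 without 5400 or 9616. Without the 5 cortex libraries low in cortex markers 3 genes were called (Ebp, Tm7sf2 and Insig2), and without the libraries 5844, 5853, 7078 and 9631 also 3. The share of all genes called when libraries were left out is not given here.

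In the hippocampus 0 of 31 genes were called in the same comparison by edgeR (5.96% of all genes were), and DESeq2 called 1 (Hsd17b7, lower). An unadjusted p under 0.05 was reached by 11 of the 31, against 5539 of 20701 over all genes. Differences were below 0 for 25 genes and above 0 for 6, with a median of -0.12 against -0.03 over all genes. Lss was 41.1 ± 8.49 CPM with minocycline and 31.02 ± 2.13 CPM without (0.33 ± 0.11, adjusted p = 0.065), and Hsd17b7 was 18 ± 1.78 against 19.99 ± 2.11 CPM (-0.21 ± 0.07, adjusted p = 0.0709).

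SS + RSD + minocycline mice were also set against SS mice. In the cortex 0 of 31 genes were called (0% of all genes) and DESeq2 called 0. None had an unadjusted p under 0.05, against 1227 of 19906 over all genes. The smallest p were those of Srebf2 (264 ± 35.4 against 286 ± 11.8 CPM, -0.12 ± 0.07, 95% interval -0.25 to 0.02, adjusted p = 0.869) and Abca1 (42.2 ± 21 against 33.01 ± 4.59 CPM, 0.36 ± 0.26, adjusted p = 0.93). In the hippocampus edgeR called 0 of 31 (0% of all genes) and DESeq2 0. Again 0 had an unadjusted p under 0.05, against 759 of 20701 over all genes. Tm7sf2 was 16.7 ± 4.50 against 20.2 ± 5.19 CPM there (-0.25 ± 0.14, adjusted p = 0.999) and Ggps1, which makes the lipid tail of prenylated proteins, 55.4 ± 7.26 against 52.8 ± 5.26 CPM (0.11 ± 0.08).

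**Figure D4:**
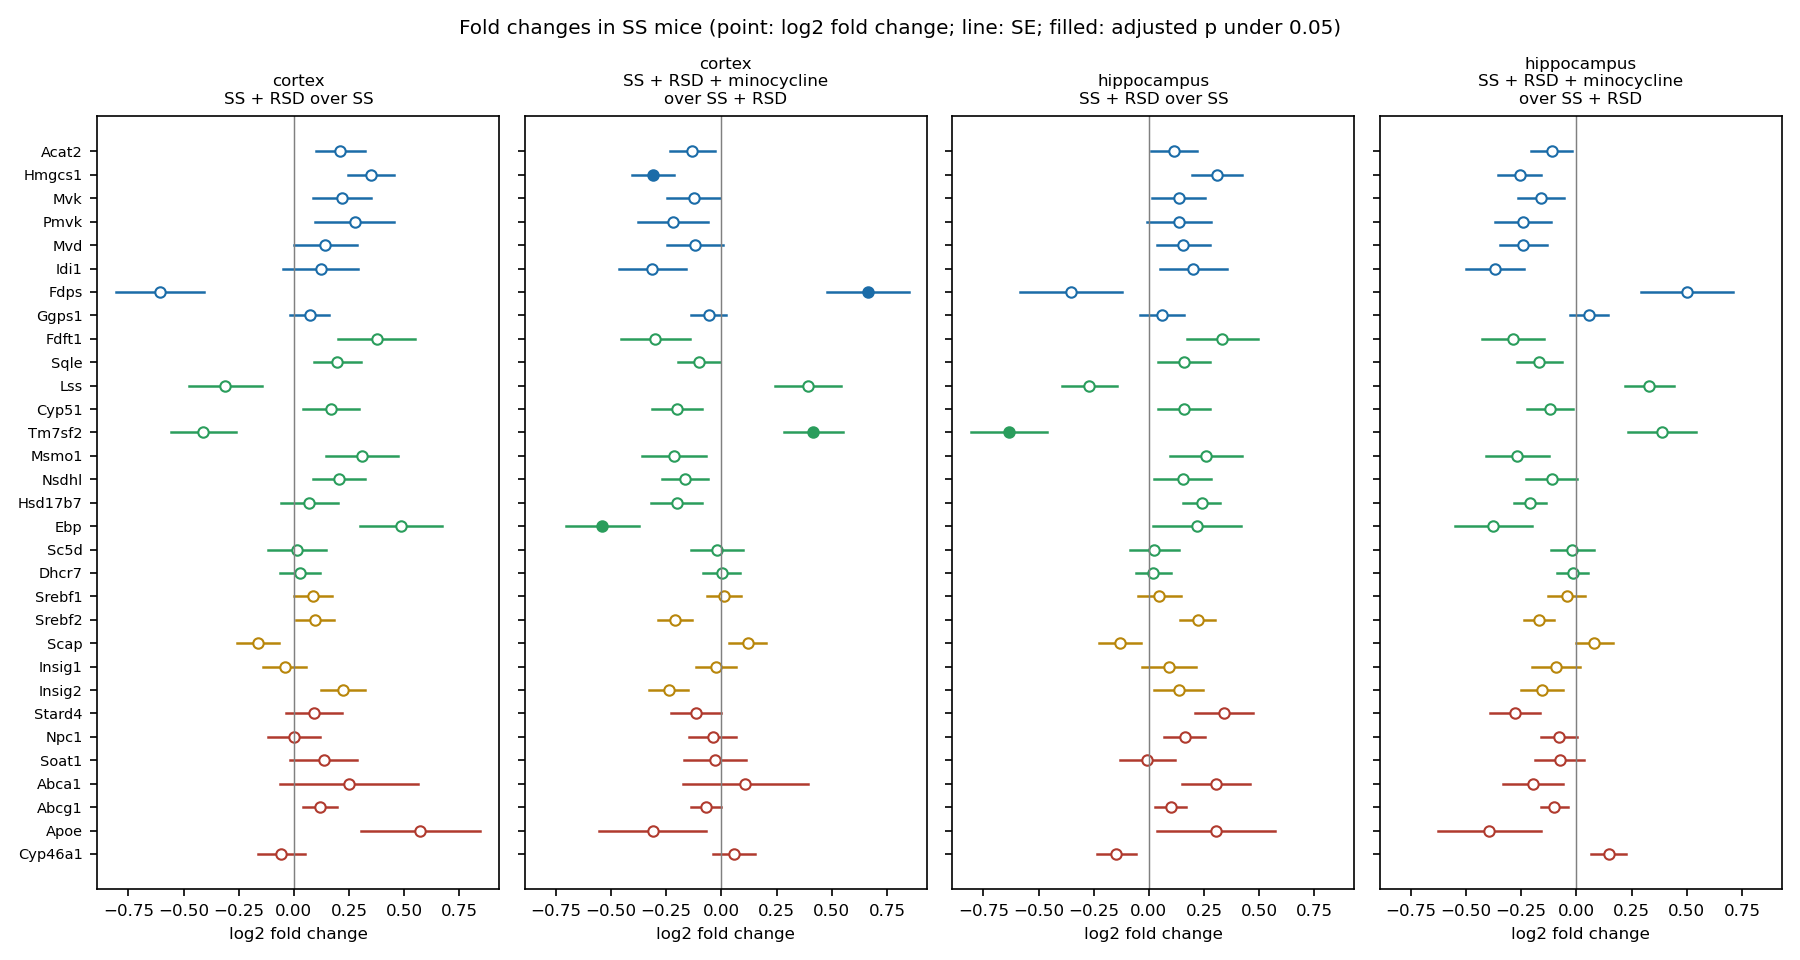
Log2 fold changes of the 31 genes in SS mice, for RSD over none and for minocycline with RSD over RSD alone, in each tissue, with the SE as a line, filled points for adjusted p under 0.05, and the colours of the roles (blue mevalonate, green sterol, ochre sensing, red transport and removal). The comparisons share the SS + RSD mice, and Fdps, Lss and Tm7sf2 lie left of 0 with RSD and right of 0 with minocycline in both tissues.

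**Figure D5:**
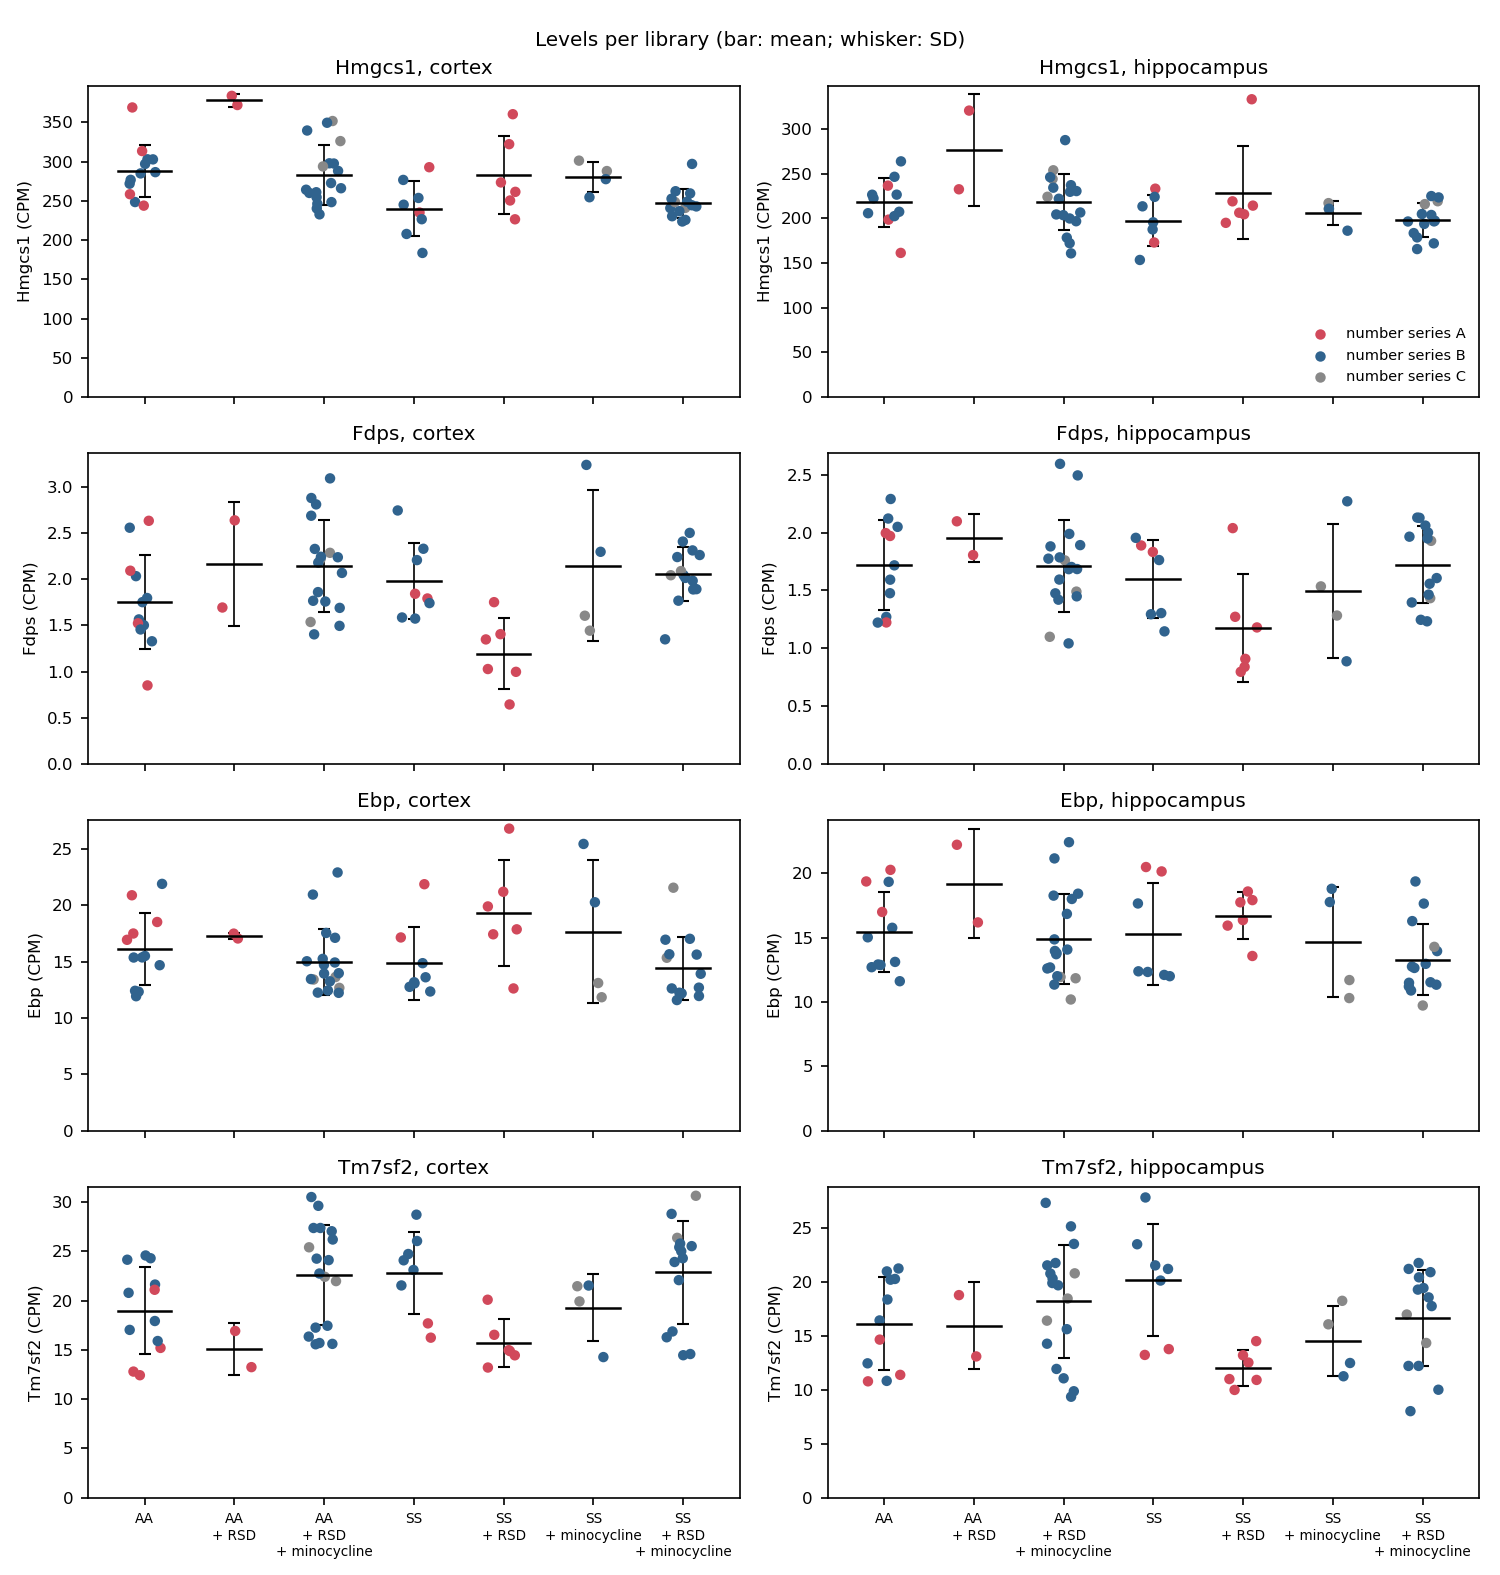
CPM of Hmgcs1, Fdps, Ebp and Tm7sf2 in each library by group and tissue, coloured by number series, with a bar at the mean and a whisker for the SD. In Tm7sf2 the series A mice of the AA and SS groups lie mostly below the series B mice, and the RSD groups without minocycline hold series A mice only.

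Minocycline without RSD was tested in SS mice. In the cortex 0 of 31 genes were called (0% of all genes) and DESeq2 called 0. An unadjusted p under 0.05 was reached by 2 genes, against 1406 of 19906 over all genes. These were Acat2, the thiolase of the first step (36.5 ± 7.78 CPM in 4 SS + minocycline mice against 30.8 ± 3.95 in 8 SS mice, 0.32 ± 0.13, adjusted p = 0.666), and Hmgcs1, at 254.6, 277.7, 288.0 and 301.3 CPM in the SS + minocycline mice (0.29 ± 0.12, adjusted p = 0.666), which overlaps the SS mice. With mice of series B only, 2 SS + minocycline mice (9888 and 9889) remain against 6 SS mice. There 9 of 31 genes were higher and 0 lower by edgeR, while 27.1% of all genes were called in either direction. The share of all genes by direction is not given here, so the direction of the 9 genes has no background. Mouse 9889 stands apart in Mvk, 1 of the 9, at 32.5 CPM against 17.7 to 18.5 in the other SS + minocycline mice. In the hippocampus 0 genes were called by edgeR (0% of all genes) and 0 by DESeq2. None had an unadjusted p under 0.05, against 449 of 20701 over all genes. Tm7sf2 (-0.40 ± 0.19) and Srebf2 (0.15 ± 0.09) had the smallest p there (adjusted p = 0.981).

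The AA mice with RSD alone numbered 2 in each tissue, both of series A. In the cortex AA + RSD against AA mice gave 0 of 31 called genes (0% of all genes) and 0 by DESeq2. An unadjusted p under 0.05 was reached by 5 of the 31, against 1148 of 21861 over all genes. There were 24 differences above 0, with a median of 0.12 against -0.03 over all genes. Hmgcs1 was 372.2 and 383.9 CPM in the AA + RSD mice and 243.9 to 369.1 CPM (median 285.8) in the 12 AA mice, so the groups did not overlap (0.40 ± 0.14, adjusted p = 0.822). The AA mouse at 369.1 CPM is of series A, as are both AA + RSD mice. How many of all genes show no overlap with these 2 mice was not counted, in either tissue. Sqle was 74.2 ± 9.91 against 57.6 ± 6.74 CPM (0.37 ± 0.15, adjusted p = 0.822).

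In the hippocampus the same comparison gave 0 of 31 (0.0419% of all genes) and 0 by DESeq2. An unadjusted p under 0.05 was reached by 4 of the 31, against 835 of 21486 over all genes. Insig1 was 72.7 and 81.2 CPM in the AA + RSD mice and 43.97 to 67.98 CPM in the 11 AA mice, without overlap (0.49 ± 0.16, adjusted p = 0.899). Mvd, the decarboxylase that yields isopentenyl diphosphate, was 20.6 and 23.2 CPM against 13.6 to 20.7 CPM (0.41 ± 0.15, adjusted p = 0.899). The library of mouse 9674 labelled hippocampus has the markers of cortex, where Insig1 was higher in 18 of 18 control mice, and holds 93.5 CPM of Insig1. With it added, Insig1 (0.62 ± 0.14, adjusted p = 0.0127) and Mvd (0.53 ± 0.13, adjusted p = 0.0299) were called. The share of all genes called with this library is not given here.

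AA + RSD + minocycline against AA + RSD mice gave 0 of 31 called genes in the cortex (0% of all genes, 2 at an unadjusted p under 0.05, 0 by DESeq2) and 0 in the hippocampus (0.0419% of all genes, 1 and 0). Over all genes, 2867 of 21861 in the cortex and 1494 of 21486 in the hippocampus had an unadjusted p under 0.05. The AA + RSD mice are of series A and the AA + RSD + minocycline mice of series B or C. Minocycline and number series therefore cannot be told apart here. Hmgcs1 was 283 ± 37.8 against 378 ± 8.24 CPM in the cortex (-0.46 ± 0.14, adjusted p = 0.282) and Tm7sf2 22.6 ± 5.11 against 15.1 ± 2.60 (0.53 ± 0.22, adjusted p = 0.339). Tm7sf2 was also higher in series B than in series A of control mice. In the hippocampus Insig1 was 53.5 ± 8.20 against 76.9 ± 6.02 CPM (-0.50 ± 0.15, adjusted p = 0.585) and Idi1, the isopentenyl diphosphate isomerase, 11.9 ± 2.16 against 15.6 ± 4.41 (-0.37 ± 0.19, adjusted p = 0.696). With the library of mouse 9674, whose markers are those of cortex, the hippocampus difference of Insig1 was -0.64 ± 0.13 (adjusted p = 0.0041).

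AA + RSD + minocycline against AA mice gave 0 of 31 in the cortex (0.0503% of all genes, 1 at an unadjusted p under 0.05, 0 by DESeq2) and 0 of 31 in the hippocampus (0% of all genes, 3 and 0). Over all genes, 1506 of 21861 in the cortex and 704 of 21486 in the hippocampus had an unadjusted p under 0.05. Tm7sf2 was 22.6 ± 5.11 against 18.99 ± 4.38 CPM in the cortex (0.22 ± 0.11, adjusted p = 0.72) and Sqle 64.97 ± 8.95 against 57.6 ± 6.74 (0.14 ± 0.08, adjusted p = 0.766). Abca1 was 36.2 ± 8.76 against 44.3 ± 8.52 CPM in the hippocampus (-0.28 ± 0.12, adjusted p = 1.0) and Mvd 18.1 ± 2.30 against 16.2 ± 2.09 (0.17 ± 0.08, adjusted p = 1.0).

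The genotypes were compared at each level of exposure. Between SS and AA mice 0 of 31 genes were called in the cortex (0.206% of all genes, 2 at an unadjusted p under 0.05, 0 by DESeq2), with 27 differences below 0 and a median of -0.13 against -0.05 over all genes. Over all genes, 1643 of 22870 in the cortex and 896 of 23372 in the hippocampus had an unadjusted p under 0.05. Hmgcs1 was 183.6 to 292.9 CPM (median 240.1) in the 8 SS mice and 243.9 to 369.1 CPM (median 285.8) in the 12 AA mice (-0.34 ± 0.09, adjusted p = 0.179). Within series B alone it was -0.34 ± 0.10 (adjusted p = 0.0702) and within series A -0.20 ± 0.20. Fdft1 was 109 ± 17.9 against 127 ± 21.7 CPM (-0.30 ± 0.13, adjusted p = 0.678). In the hippocampus 0 of 31 were called (0.158% of all genes, 1 at an unadjusted p under 0.05, 0 by DESeq2), with Srebf2 at 227 ± 9.55 against 247 ± 19.6 CPM (-0.14 ± 0.07) and Tm7sf2 at 20.2 ± 5.19 against 16.2 ± 4.29 CPM (0.30 ± 0.17), both at an adjusted p of 1.0. The 8 oligodendrocyte markers had medians of 4318 CPM (SS) and 5831 CPM (AA) in the cortex and 4087 and 5132 CPM in the hippocampus. The 5 endothelium markers had medians of 216 (SS) and 154 CPM (AA) in the cortex and 194 and 145 CPM in the hippocampus. The part of both lists in the differences between genotypes was not tested.

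Between SS + RSD and AA + RSD mice 0 of 31 genes were called in the cortex (0% of all genes, 6 at an unadjusted p under 0.05, 0 by DESeq2) and 0 in the hippocampus (0.0171% of all genes, 2 and 0). Over all genes, 670 of 22870 in the cortex and 667 of 23372 in the hippocampus had an unadjusted p under 0.05. How many of all genes show no overlap between these groups was not counted. Insig1 was 45.4 to 68.4 CPM in the cortex of the 6 SS + RSD mice and 81.3 and 90.6 CPM in the AA + RSD mice, without overlap (-0.51 ± 0.16, adjusted p = 1.0). In the hippocampus it was 33.9 to 60.5 against 72.7 and 81.2 CPM, again without overlap (-0.56 ± 0.17, adjusted p = 0.88), and with the library of mouse 9674, whose markers are those of cortex, the difference was -0.70 ± 0.15 (adjusted p = 0.0094). Fdps was 1.196 ± 0.387 against 2.17 ± 0.668 CPM in the cortex (-0.86 ± 0.28) and 1.172 ± 0.4657 against 1.95 ± 0.206 in the hippocampus (-0.68 ± 0.30), at an adjusted p of 1.0 in each.

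The largest groups were the mice with RSD and minocycline, 14 SS and 18 AA. In the hippocampus 2 of 31 genes were called, both lower in SS mice (6.45%, against 2.73% of all genes in either direction and 0.116% in the lower direction). Mvd was 11.6 to 19.2 CPM (median 14.96) in SS + RSD + minocycline mice and 13.6 to 22.4 CPM (median 17.8) in AA + RSD + minocycline mice (-0.28 ± 0.07, adjusted p = 0.0206). Mvk was 14.5 to 23.2 CPM (median 17.9) against 17.7 to 26.6 CPM (median 21.7), a log2 difference of -0.25 ± 0.07 (adjusted p = 0.0215). The groups overlap for both genes, and with mice of series B alone the differences were -0.30 ± 0.07 (adjusted p = 0.0505) and -0.26 ± 0.07 (adjusted p = 0.0813). Exonic bases of Mvd overlap Gm51557 on the other strand over 20.5% of their length.

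In the cortex 0 of 31 genes were called between these groups by edgeR (0.599% of all genes), and DESeq2 called 1 (Idi1, lower). An unadjusted p under 0.05 was reached by 10 of the 31, against 2035 of 22870 over all genes. Idi1 was 11.5 ± 1.47 against 14.9 ± 4.49 CPM (-0.42 ± 0.12, adjusted p = 0.0922) and Stard4 36.5 ± 6.11 against 44.2 ± 8.96 CPM (-0.31 ± 0.09, adjusted p = 0.0959). Differences were below 0 for 27 of the 31 in the cortex and for 25 in hippocampal libraries, with medians of -0.14 and -0.11 against -0.002 and -0.006 over all genes. Mvd in the cortex was 17.4 ± 2.85 against 18.9 ± 2.86 CPM and Mvk 20.7 ± 3.78 against 21.4 ± 2.001 CPM.

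The difference between genotypes in the effect of RSD was tested as an interaction. It gave 0 of 31 genes in the cortex (0% of all genes, 2 at an unadjusted p under 0.05, 0 by DESeq2) and 0 in the hippocampus (0.0128% of all genes, 1 and 0). Over all genes, 424 of 22870 in the cortex and 622 of 23372 in the hippocampus had an unadjusted p under 0.05. The interaction of Insig1 was -0.43 ± 0.19 in the cortex and -0.43 ± 0.20 in the hippocampus (95% intervals -0.79 to -0.06 and -0.83 to -0.03), that of Fdps in the cortex -0.96 ± 0.32 and that of Tm7sf2 in the hippocampus -0.64 ± 0.33, at an adjusted p of 1.0 each. The interaction with RSD and minocycline together gave 0 of 31 in each tissue (0% of all genes, 0 by DESeq2), and at an unadjusted p under 0.05 there were 0 in cortex and 3 in hippocampus. Over all genes these were 697 of 22870 and 1067 of 23372. Insig1 (-0.17 ± 0.12) and Abca1 (0.38 ± 0.27) had the smallest p in the cortex, and Mvd (-0.26 ± 0.12) and Tm7sf2 (-0.43 ± 0.21) in the hippocampus.

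Around the 31 genes, 40 further genes of fatty acid synthesis, sterol sensing, sterol transport, oxysterols and isoprenoids were counted, and all 40 were tested in each comparison named here. Between control mice of series B and A, 6 of 40 were higher and 11 lower in the cortex (21.1% and 19.1% of all genes were) and 6 higher and 13 lower in the hippocampus (18.3% and 22.5% of all genes). The fatty acid synthesis genes had 0 of 10 higher and 5 of 10 lower in each tissue, among them the desaturases Fads2 (-0.35 ± 0.06 and -0.43 ± 0.07) and Scd2 (-0.19 ± 0.05 and -0.27 ± 0.06). Between the tissues 13 were higher and 13 lower in the cortex (28.6% and 32.8% of all genes were), with the oxysterol hydroxylase Cyp7b1 at -1.25 ± 0.06 and the sterol-binding Osbpl1a at 1.52 ± 0.05.

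In SS mice, Pdss1, which builds the tail of ubiquinone from isoprenoids, was lower with RSD in the cortex (-0.77 ± 0.19, adjusted p = 0.0405) as 1 of the 40. It was higher with RSD and minocycline than with RSD alone in the cortex (0.79 ± 0.18, adjusted p = 0.0109) and the hippocampus (0.77 ± 0.19, adjusted p = 0.026). In series B over A of control mice Pdss1 was higher by 0.69 ± 0.11 and 0.66 ± 0.11 in the cortex and hippocampus. Ch25h, which makes an oxysterol in activated macrophages and microglia, was higher in SS than AA mice with RSD and minocycline, 3.22-fold in the cortex (log2 1.69 ± 0.25, adjusted p = 5.68e-06) and 3.01-fold in the hippocampus (1.59 ± 0.23, adjusted p = 6.21e-06), and Acss2, which makes acetyl-CoA from acetate, was lower in the cortex (-0.23 ± 0.06, adjusted p = 0.0393).

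How the genes varied together was described from the log2 CPM of each library after the mean of its group and number series was taken off, over 65 cortex and 63 hippocampus libraries. Libraries share depth, dissection and RNA quality, so a correlation is a description of these libraries. The 171 pairs of the 19 synthesis enzymes had a median r of 0.25 in each tissue, with 113 pairs above 0 in the cortex and 119 in the hippocampus. Synthesis enzymes and the 7 transport and removal genes had a median r of -0.05 over 133 pairs in each tissue.

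Cyp51 and Msmo1, both of the steps after lanosterol, had the highest r of the cortex (0.78) and 0.83 in the hippocampus, where Fdft1 and Msmo1 reached 0.87. The lowest r of the enzyme pairs belonged to Lss and Ebp, at -0.69 (cortex) and -0.77 (hippocampus), and Lss and Pmvk had -0.60 and -0.61. Across the other 18 enzymes Lss reached up to 0.53 and 0.70, with 8 and 7 pairs above 0. Lss and Tm7sf2 had medians at or below 0 against the other 18 enzymes (-0.04 and -0.04 in the cortex, -0.09 and -0.14 in the hippocampus), as did Ggps1 (-0.23 and -0.05), while Nsdhl (0.40 in each tissue) and Fdft1 (0.34 and 0.45) had high ones. Insig1 was positively related to 17 of the 19 enzymes in the cortex and 18 in the hippocampus, and Srebf2 to 8 in each.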

How the data were processed

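The authors made libraries from polyadenylated RNA with a directional kit, aligned reads to GRCm39 with STAR and deposited, per tissue, a table of whole-number read counts per GENCODE gene without normalization. The strand setting of the counts and the annotation release are not given in the sources used here. Counts on genes served as library sizes, and 3 columns without a known group were not used. Counts were tested with the quasi-likelihood test of edgeR 4.0.16 in R 4.3.3 (TMM, filterByExpr by group with minimum count 10 and minimum total 15), with p-values adjusted by Benjamini-Hochberg over all genes tested, and genes with an adjusted p under 0.05 are called. Within a genotype, 1 model held all groups of that genotype and tissue. Comparisons of genotypes and interactions used 1 model of all groups of the tissue. Series were compared with genotype as a term and tissues with the mouse as a block. The block follows from the labels, since the same mouse gave both libraries. Deviations of the tissues correlated in 18 of 18 mice (r 0.28 to 0.91 over 9845 genes). In 10 of the 18 the cortex library correlated best with the hippocampus library of the same mouse. Genotype and series were not taken off, so these correlations do not by themselves show the pairing. The SE is the log2 fold change divided by the root of F and is approximate. CPM use reads on genes, while fold changes use TMM. P-values set a difference against the spread between mice of a group. For the tissues, the spread is what remains after the mouse block. DESeq2 1.42.0 was the alternative test. Tests were checked on simulated counts. Positions and promoters come from GENCODE vM39 on GRCm39. In each comparison values are given for the called genes of smallest p, at most 8, or for the 2 of smallest p where none was called. Values of further genes, such as the other called genes of the tissue and series comparisons, were added after they were seen. Members and lists were chosen with earlier results of these data known.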

Additional observations from a re-analysis of the deposited data

Results flagged for a closer look

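In each group of 4 to 10 libraries, a gene was picked out where its highest or lowest library lay far from the rest by Dixon's criterion, which chance meets in about 1 in 20 groups. Of 186 gene and group pairs tested, 9 met it.

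In the cortex, Cyp46a1 was 265.2 CPM in SS mouse 9824 against 198.8 to 224.1 CPM in the other SS mice. Hsd17b7 was 26.98 CPM in SS + RSD mouse 5391 against 19.23 to 21.68 in the others, and Soat1 was 49.05 CPM in SS + RSD mouse 9621 against 27.21 to 33.75. Mouse 9621 also has a low sum of cortex markers. SS + minocycline mouse 9889 was picked out for 3 genes, with Mvk at 32.45 CPM against 17.73 to 18.48 in the others, Hsd17b7 at 14.89 CPM against 22.7 to 24.18, and Abcg1 at 67.37 CPM against 83.57 to 86.9.

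In the hippocampus, Npc1, which exports cholesterol from lysosomes, was 63.67 CPM in SS mouse 9903 against 76.8 to 84.01 in the others. Hmgcs1 was 333.6 CPM in SS + RSD mouse 9621 against 195.1 to 219.2 in the others, and Fdft1 was 83.11 CPM in SS + RSD mouse 5391 against 97.66 to 105.7. The causes were not tested.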

How the results depend on the processing

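Of 234 recomputed counts, 204 stayed within 1.5 times the count reported and 30 did not. Most comparisons called 0 genes, and a 0 that stayed 0 is among the 204. The 204 therefore do not measure how stable the calls are. Except for series B in SS cortex, the share of all genes called in each recomputed fit is not given. With DESeq2, RSD in SS cortex gave 3 called genes, minocycline with RSD in SS hippocampus 1, and the genotypes with RSD and minocycline in the cortex 1. For minocycline with RSD in SS cortex, no filter on low counts gave 0, the number series as a term 0 (Ebp 0.15 and Tm7sf2 -0.049, both of opposite sign to the reported value), and leaving out 1 SS + RSD mouse at a time 0 to 2. For RSD in SS hippocampus the 1 call was lost (0) with RLE size factors, no filter, the series as a term, mice of series A only and without the libraries labelled 5844, 5853, 7078 and 9631, whose red-cell genes go against their labels, and leaving out 1 SS + RSD mouse gave 0 to 1. Without those 4 libraries the genotypes with RSD and minocycline gave 1 in the cortex, and 3 in the hippocampus (the 2 reported and Sqle). Series B alone gave 9 for minocycline in SS cortex (27.1% of all genes were called in either direction) and 0 for the genotypes with RSD and minocycline in the hippocampus. AA mice alone gave 3 (cortex) and 4 (hippocampus) between series, and SS mice alone 7 in the hippocampus, without the share of all genes in these fits. With mouse 9674 the hippocampus gave 2 for AA + RSD against AA, 1 for AA + RSD + minocycline against AA + RSD and 1 for SS + RSD against AA + RSD. Without the mouse block 16 genes differed between tissues in place of 21. The causes were not tested. Leaving out 5 cortex libraries with under 400 CPM of cortex markers (5646, 5801, 9621, 9813 and 9890), or hippocampus library 9810, was chosen after seeing the data. For minocycline with RSD in SS cortex it gave 3 called genes, 2 of them shared with the 4 reported. Comparisons with AA + RSD rest on 2 mice.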
